A study of Homo sapiens with 6 samples.

Results

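Metallothioneins are small, cysteine-rich proteins of the cytosol and nucleus that hold zinc and copper ions, and cadmium where cells meet it. The data described here are the RNA levels of 9 genes of this system: the metallothionein genes MT2A, MT1E, MT1F, MT1G, MT1M and MT1X, the transcribed pseudogene MT1L, the transcription factor gene MTF1 and the zinc exporter gene SLC30A1. Members were found by matching the deposited Ensembl IDs, without their version, to these symbols in GENCODE 29, and all 9 were found among 58381 gene IDs. The members were chosen by their measured differences between the cell fractions compared here, so those differences are given as a description and carry no test.

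The libraries were made from MCF10AT1, an established human breast epithelial line derived from MCF10A cells carrying activated HRAS, and therefore 1 genetic background without a normal counterpart. Cells stained for CD24 and CD44 were sorted into a CD24low, CD44high fraction, which the submitters' column names call CSC, and a CD24high, CD44-positive fraction, which they call Bulk. There were 3 libraries per fraction, prepared from total RNA after removal of ribosomal RNA (rRNA), and both fractions came from cells kept in the same medium, with 5% horse serum, 10 µg/ml insulin, 20 ng/ml EGF, 100 ng/ml cholera toxin and 0.5 µg/ml hydrocortisone. No label says that the replicates were separate cultures, so errors and p-values reflect differences among these libraries alone, possibly technical ones.

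MTF1 is the zinc sensor of the cell: when it binds zinc it attaches to metal response elements, short DNA motifs in promoters, and switches on metallothionein genes and SLC30A1. SLC30A1, also called ZnT1, carries zinc across the plasma membrane out of the cell, while transporters of the SLC39A family bring zinc into the cytosol. Glucocorticoids and oxidants are also known to raise metallothionein RNA.

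The coding sequences of the 3 abundant metallothioneins are shown because their likeness bears on how far reads can be told apart. They were read from GENCODE 29 transcripts (GRCh38, chromosome 16, plus strand), and capitals mark the cysteine codons TGC and TGT.
MT2A: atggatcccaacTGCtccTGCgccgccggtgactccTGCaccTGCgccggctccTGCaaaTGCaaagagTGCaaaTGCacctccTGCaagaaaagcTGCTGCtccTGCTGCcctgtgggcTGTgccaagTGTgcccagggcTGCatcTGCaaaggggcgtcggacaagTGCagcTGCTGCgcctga
MT1E: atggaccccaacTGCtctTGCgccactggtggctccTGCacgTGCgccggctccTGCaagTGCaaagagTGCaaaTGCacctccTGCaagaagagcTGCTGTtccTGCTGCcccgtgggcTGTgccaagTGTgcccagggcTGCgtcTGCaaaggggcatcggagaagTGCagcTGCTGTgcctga
MT1X: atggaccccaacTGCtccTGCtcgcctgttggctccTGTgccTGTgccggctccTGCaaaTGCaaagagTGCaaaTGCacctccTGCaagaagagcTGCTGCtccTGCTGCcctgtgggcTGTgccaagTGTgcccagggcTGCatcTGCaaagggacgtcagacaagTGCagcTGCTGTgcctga
Each of the 6 coding metallothionein members had 186 coding bases including the stop codon, and 20 of its 61 codons were cysteine codons. MT2A used TGC for 18 of them and TGT for 2, MT1E used 16 and 4, and MT1X used 15 and 5. Identity between coding sequences ran from 88.7% for MT1F with MT1X to 95.2% for MT1G with MT2A, and MT1E and MT1X each shared 92.5% of their bases with MT2A. Over whole annotated transcripts likeness was counted in another way, as exact shared windows, which cannot be set against these identities. Windows of the coding part were not counted apart. Of windows of 50 bases, 3.02% of those of MT2A, 7.10% of those of MT1E and 1.22% of those of MT1F also occurred in another gene's transcript. The share was 18.3% for MT1X, mostly through AC026461.1, an overlapping transcript on the same strand, and 16.5% for MT1G. No window of SLC30A1 and 0.891% of those of MTF1 were shared. Reads from the shared stretches may have been split or counted at several genes, since the rule for reads that map more than once is not given in the sources used here.

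Promoters are shown for the members with an entry in the RefSeq table (GRCh38.p14), namely MT2A, MT1X, SLC30A1 and MTF1, as the 250 bases before the RefSeq start. That start lies 385, 46 and 28 bases downstream of the GENCODE 29 gene start for MT2A, MT1X and MTF1, and 419 bases upstream of it for SLC30A1, whose window therefore does not adjoin the gene as counted here. The MT2A window lies wholly inside the annotated span of its gene, and the MT1X and MTF1 windows reach 46 and 28 bases into theirs. Capitals mark matches on either strand to the metal response element cores TGCACNC and TGCGCNC. These differ at base 4, so 1 stretch on 1 strand cannot match both.
MT2A, chr16:56608334-56608583, plus strand: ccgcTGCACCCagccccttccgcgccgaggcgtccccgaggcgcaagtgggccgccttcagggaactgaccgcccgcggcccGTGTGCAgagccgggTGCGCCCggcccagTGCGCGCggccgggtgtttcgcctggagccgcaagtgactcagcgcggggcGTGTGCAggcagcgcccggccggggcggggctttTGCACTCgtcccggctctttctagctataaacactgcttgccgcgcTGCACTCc
MT1X, chr16:56682220-56682469, plus strand: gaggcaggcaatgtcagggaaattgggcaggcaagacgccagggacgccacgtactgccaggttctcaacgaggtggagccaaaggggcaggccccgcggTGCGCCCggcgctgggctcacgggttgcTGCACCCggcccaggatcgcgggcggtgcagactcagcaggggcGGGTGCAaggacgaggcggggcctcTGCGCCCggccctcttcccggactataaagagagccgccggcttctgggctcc
SLC30A1, chr1:211579162-211579411, minus strand: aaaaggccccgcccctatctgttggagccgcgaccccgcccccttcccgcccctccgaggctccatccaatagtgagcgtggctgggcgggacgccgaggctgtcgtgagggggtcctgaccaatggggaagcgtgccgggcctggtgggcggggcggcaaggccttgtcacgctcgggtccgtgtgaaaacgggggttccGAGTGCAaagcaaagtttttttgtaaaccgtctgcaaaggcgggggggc
MTF1, chr1:37859593-37859842, minus strand: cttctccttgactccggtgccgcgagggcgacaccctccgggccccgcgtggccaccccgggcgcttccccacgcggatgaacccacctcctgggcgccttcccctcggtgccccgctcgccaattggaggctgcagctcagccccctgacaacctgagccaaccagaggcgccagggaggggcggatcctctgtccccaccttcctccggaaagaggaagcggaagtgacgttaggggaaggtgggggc
The MT2A window held 7 matches, 5 of TGCACNC and 2 of TGCGCNC, and the MT1X window held 4, 2 of each. The SLC30A1 window held 1 match, of TGCACNC, and in the MTF1 window these letters were not found. Of 35116 promoter windows of the same length in the table, 24.8% held at least 1 match of either core, 0.370% at least 4 and 0.0513% at least 6. TGTTCT, core letters of the glucocorticoid response element, was searched on both strands as well. It occurred in 12.4% of all windows and in 0 of these 4. Sites outside the 250 bases, or with other letters, would not be found, so a glucocorticoid response element may have been missed. Matches are letters in a window and were not measured as bound sites.

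Some libraries stood apart from the rest. Recovered reads ran from 24421025 to 26988295 in CD24low and from 16691162 to 27293177 in CD24high libraries. Annotated rRNA genes, here with mitochondrial rRNA and rRNA pseudogenes included, took 7.15%, 7.07% and 1.97% of reads in CD24low replicates 1, 2 and 3. They took 1.30%, 2.27% and 10.2% in CD24high replicates 1, 2 and 3. The first principal component placed CD24low replicates 1, 2 and 3 at -22.9, -55.0 and -3.83 and the CD24high libraries at 15.9 to 34.2, with CD24low replicate 3 nearest to the other fraction. Values are therefore also given among the 3 libraries of low rRNA share (CD24low replicate 3, CD24high replicates 1 and 2) and among the 3 of high share (CD24low replicates 1 and 2, CD24high replicate 3). The sort was visible in CD24 RNA, with 588, 329 and 1370 normalized counts in CD24low against 4043, 2325 and 5687 in CD24high libraries. CD44, the hyaluronan receptor, had 7547 ± 716 against 8475 ± 562 (SD, n = 3 each).

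MT2A, MT1E and MT1X, the abundant metallothioneins, were 2.30- to 2.55-fold higher in CD24low cells, while SLC30A1 was 0.768 times its CD24high level and MTF1 1.17 times. Levels are normalized counts, which are gene counts that the authors divided by a size factor per library, and each difference is the CD24low mean less the CD24high mean of log2 (normalized count + 1). In bulk RNA, a larger share of cells with the transcript and more transcript per cell cannot be told apart.

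MT2A, the main metallothionein of most human cell types (ENSG00000125148.6, hg38 chromosome 16, 56608199 to 56609497, plus strand), had 23528, 23517 and 13329 normalized counts in CD24low replicates 1, 2 and 3, and 7818, 8510 and 9072 in CD24high replicates 1, 2 and 3. The CD24low libraries all lay above the CD24high libraries, with replicate 3 the lowest of its group. The log2 difference was 1.20 (SE 0.21), a 2.30-fold ratio. It was 0.71 among libraries of low rRNA share and 1.37 among those of high share. Here and below, SE is the moderated standard error of the limma fit. It is drawn towards a variance trend over all tested genes, so it can be smaller than the spread of a gene's own values.

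MT1E, a coding gene 17.3 kb further along the cluster (ENSG00000169715.14, chromosome 16, 56625475 to 56627112, plus strand), had 5099, 5875 and 3618 normalized counts in CD24low libraries and 1884, 2184 and 1819 in CD24high libraries. The groups were again apart, and CD24low replicate 3 was again nearest to the CD24high range. The log2 difference was 1.28 (SE 0.17), with 0.83 among libraries of low and 1.59 among those of high rRNA share.

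MT1X, at the far end of the cluster (ENSG00000187193.8, chromosome 16, 56682424 to 56684196, plus strand), had 665, 1040 and 497 normalized counts in CD24low libraries, against 278, 301 and 245 in CD24high libraries. All CD24low values lay above all CD24high values, and CD24low replicate 2 was the highest. The log2 difference was 1.35 (SE 0.24), with 0.78 and 1.76 among libraries of low and high rRNA share. AC026461.1, a transcript that starts inside MT1X and runs past its end, shares 321 exonic bases with it, 18.1% of the exonic length of MT1X and 58.3% of its own. It had 337, 557 and 262 normalized counts in CD24low and 96.3, 148 and 111 in CD24high libraries, so the reads of this pair are uncertain. AC026461.1 was singled out after its values were seen.

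MT1F was scarce, with 14.1, 28.7 and 20.6 normalized counts in CD24low libraries and 10.8, 14.8 and 16.1 in CD24high libraries (ENSG00000198417.6, chromosome 16, 56657694 to 56660698, plus strand). These rest on 11 to 30 reads per library, and the groups overlapped. Its log2 difference of 0.53 (SE 0.36) was 0.30 without CD24low replicate 2.

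MT1G, MT1L and MT1M were close to or at 0. MT1G had 0 to 3 reads per library, and MT1M had 1 read in CD24low replicate 2, 1 in CD24high replicate 1 and 0 in the others. MT1L had 2, 1 and 3 reads in CD24low replicates 1, 2 and 3 and 0 in each CD24high library. A count of 0 allows up to 3 reads, which is 2.49 to 4.38 normalized counts depending on the library and covers counting error only, so no fold is given for these 3 genes.

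SLC30A1 (ENSG00000170385.9, chromosome 1, 211571568 to 211578742, minus strand) had 1737, 1429 and 1700 normalized counts in CD24low libraries and 2624, 1782 and 1996 in CD24high libraries. All CD24low values were under the lowest CD24high value. The log2 difference was -0.38 (SE 0.15), and -0.35 and -0.34 among libraries of low and high rRNA share. Without CD24high replicate 1, the highest library, it was -0.22.

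MTF1 (ENSG00000188786.9, chromosome 1, 37809567 to 37859620, minus strand) had 405, 445 and 347 normalized counts in CD24low libraries and 331, 332 and 359 in CD24high libraries. The groups overlapped, because CD24low replicate 3 lay below CD24high replicate 3. The log2 difference was 0.22 (SE 0.14), with 0.06 among libraries of low and 0.24 among those of high rRNA share, and 0.14 without CD24low replicate 2.

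**Figure D1:**
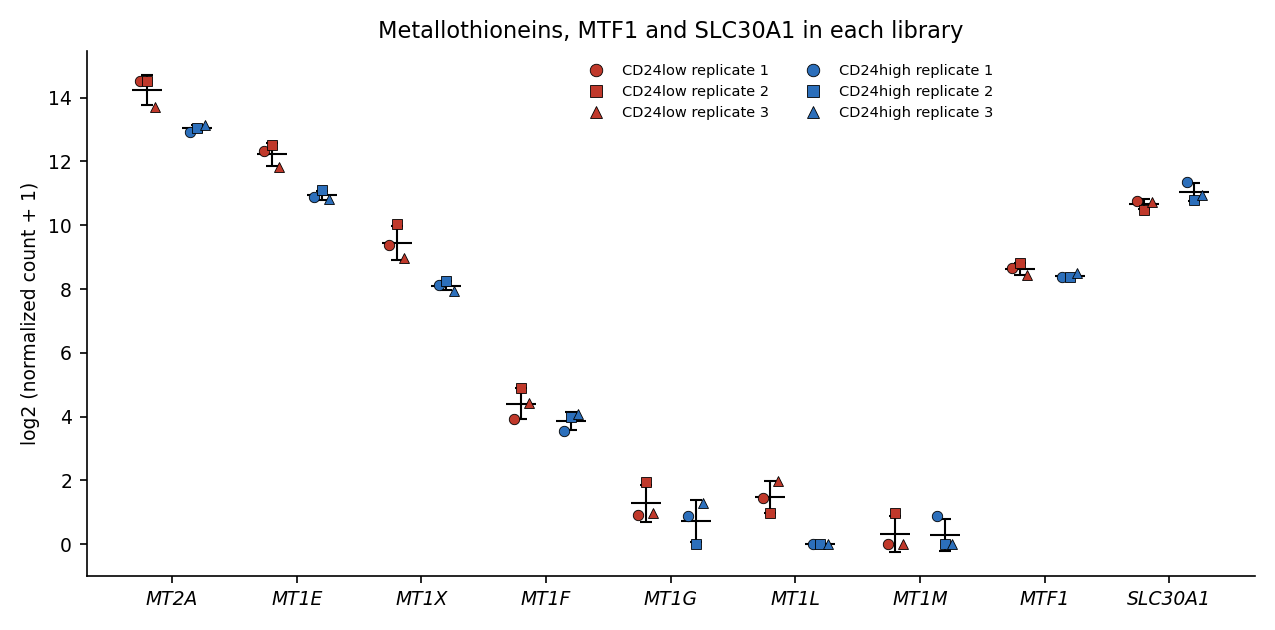
Log2 (normalized count + 1) of each of the 9 genes in each library, with CD24low in red to the left of CD24high in blue. Symbols give the replicate number, and the black bar with whiskers is the group mean ± SD of the log2 values (n = 3 each). MT2A, MT1E and MT1X lie higher in all CD24low libraries, SLC30A1 lies lower, and MT1G, MT1L and MT1M lie near 0.

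Of the 9 members, 6 passed the filter, a mean of 10 normalized counts or more. Among these 6, MT2A, MT1E and MT1X had CD24low libraries all above the CD24high libraries, a pattern found for 10.2% of 16047 tested genes, and SLC30A1 had them all below, found for 9.32%; either pattern occurred in 19.5%. A difference above 0, which 5 of these 6 members had, was found for 49.0%. The median log2 difference of the 4 metallothioneins past the filter was 1.24, against -0.01 over all genes tested. A log2 difference above 1 occurred in 1.93% of tested genes. With CD24low replicate 3 left out, MT2A, MT1E and MT1X differed by 1.48, 1.48 and 1.60. Without CD24low replicate 2 they differed by 1.07, 1.13 and 1.07.

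Per kilobase of merged exons, MT2A was the leading member in both fractions. Its level was 18112, 18104 and 10261 normalized counts per kilobase in CD24low libraries and 6018, 6551 and 6984 in CD24high libraries. MT1E came next, at 3439 to 5585 in CD24low and 1729 to 2076 in CD24high libraries. These ranges did not touch those of MT2A within a fraction. MT1X followed in CD24low cells at 280 to 587 normalized counts per kilobase, a range that overlapped that of SLC30A1 at 261 to 317. In CD24high cells MT1X had 138 to 170 and SLC30A1 had 326 to 479. Merged exons covered the whole annotated span of MT2A (1299 bases) and of MT1X (1773 bases), any introns included. Levels per kilobase, and the order of genes by them, therefore depend on the annotated lengths. Comparisons of 1 gene between the fractions do not. MTF1 had 43.2 to 55.5 in CD24low and 41.3 to 44.8 in CD24high libraries, and MT1F had 7.47 to 15.2 and 5.71 to 8.51.

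Summed over all 7 metallothionein members, reads made up 0.108% ± 0.0300 of CD24low libraries and 0.0457% ± 0.00161 of CD24high libraries (SD, n = 3 each). Outside rRNA genes the shares were 0.115% ± 0.0347 and 0.0480% ± 0.00313. The spread between CD24low libraries was therefore larger, with 0.0730% in replicate 3 and 0.123% and 0.127% in replicates 1 and 2.

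The shares of MT2A, MT1E and MT1X in the metallothionein pool overlapped between the fractions. The size of each share depends on the annotated exon lengths. MT2A made up 75.1% ± 2.21 of the summed metallothionein level per kilobase in CD24low and 76.2% ± 2.30 in CD24high libraries. MT1E made up 22.8% ± 1.91 and 21.9% ± 2.10, and MT1X 2.01% ± 0.403 and 1.82% ± 0.224 (SD, n = 3 each for all). MT1F, MT1G, MT1L and MT1M each stayed at or below 0.0960% in every library.

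Ratios within a library do not depend on the size factors, though their size depends on the annotated exon lengths. The log2 ratio of MT2A to SLC30A1 per kilobase was 5.83, 6.12 and 5.05 in CD24low libraries and 3.65, 4.33 and 4.26 in CD24high libraries. All CD24low libraries were higher, and CD24low replicate 3 was the nearest to the CD24high libraries. Since the groups were already apart for MT2A, MT1E, MT1X and SLC30A1 one by one, each ratio to SLC30A1 had to separate them. For MT1E over SLC30A1 the ratio averaged 3.94 ± 0.48 in CD24low and 2.27 ± 0.39 in CD24high libraries, and for MT1X over SLC30A1 it averaged 0.42 ± 0.68 and -1.32 ± 0.34. By contrast, MT1E over MT2A averaged -1.73 ± 0.16 and -1.81 ± 0.19, and MT1X over MT2A averaged -5.25 ± 0.33 and -5.40 ± 0.23, with overlapping ranges for each.

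**Figure D2:**
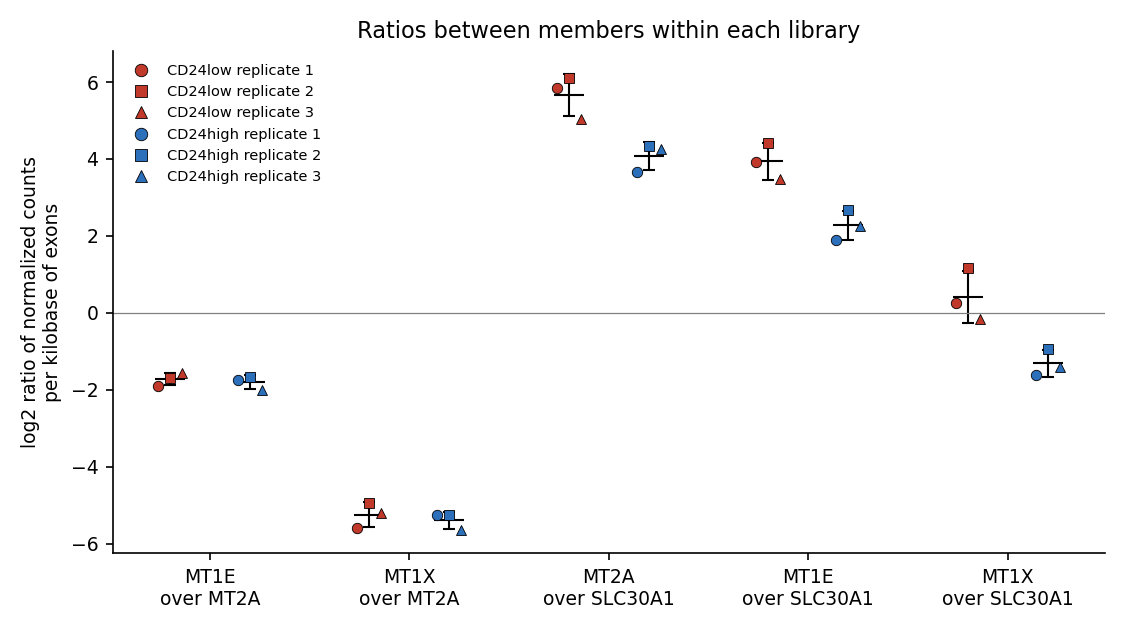
Log2 ratios of normalized counts per kilobase of exons between pairs of genes in each library, with CD24low in red to the left of CD24high in blue. Symbols give the replicate number and black bars the mean ± SD (n = 3 each). Ratios between metallothioneins overlap, while the ratios of MT2A, MT1E and MT1X to SLC30A1 are higher in all CD24low libraries.

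Profiles over the 6 libraries were compared by the root mean square difference of log2 values, each gene centred on its own mean. MT2A and MT1E differed by 0.15, MT1E and MT1X by 0.15 and MT2A and MT1X by 0.24. MTF1 was 0.52 and SLC30A1 0.88 from MT2A. Among 11469 other genes averaging 100 or more normalized counts, MT1E was the nearest to MT2A and MT1X was number 12. Next after MT1E came GALK1, the first enzyme of galactose breakdown (0.18), FBN2, the matrix protein fibrillin-2 (0.19), NAV2 (0.20) and PAG1, a membrane adaptor protein (0.20). The 5 genes nearest to SLC30A1 were C2orf69, SFT2D2, RAD51AP1, YOD1 and TMEM33, at 0.04 to 0.05, and MT2A was number 11325 from it. All profiles share the same libraries, size factors and depth, so these distances are a description.

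Genes beside the cluster had smaller differences. The 4 other tested genes that start within 180 kb of MT2A, apart from AC026461.1, differed by -0.11 to 0.19. They are OGFOD1, NUDT21, a subunit of the mRNA 3′ end processing machinery, BBS2 and the nuclear pore gene NUP93. Of 8 tested genes in the list of flanking genes, 0 passed limma's adjusted p of 0.05 in either direction, and BBS2 differed by 0.19 (limma adjusted p = 0.61). Across all genes limma called 0%, edgeR 0% and DESeq2 2.56% of 16047 genes, and 2164 genes had an unadjusted limma p below 0.05.

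**Figure D3:**
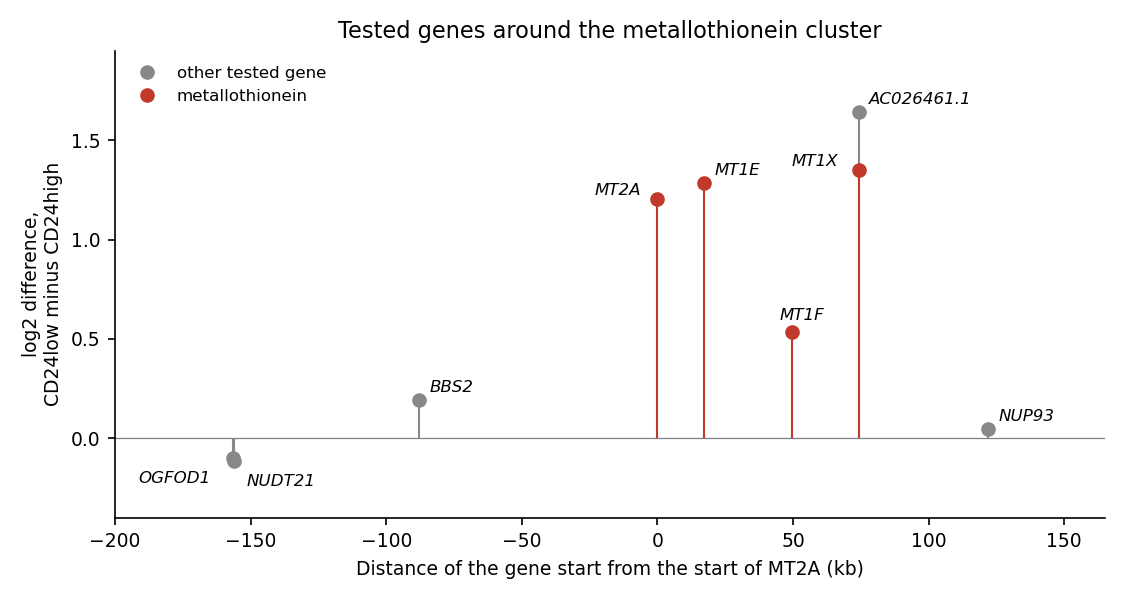
Log2 difference (CD24low minus CD24high) of tested genes against the distance of their start from that of MT2A, in kb, within 180 kb. Red points are metallothioneins and grey points other tested genes. MT2A, MT1E and MT1X stand at 1.20 to 1.35 and MT1F at 0.53, AC026461.1 at 1.64 overlaps MT1X, and the other genes lie between -0.11 and 0.19.

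The other metallothionein genes were barely read. Of 14 listed, 6 had 0 reads in all libraries, namely MT4, MT1A, MT1B, MT1H, MT1IP and MT1HL1, and the other 8 stayed below the filter. The highest was MT2P1, a processed copy of MT2A on chromosome 4, with 18.5, 17.2 and 5.88 normalized counts in CD24low and 1.66, 0 and 8.77 in CD24high libraries. MT2P1 shares sequence with MT2A, so its few reads may belong to either. MT3, the metallothionein known from brain, had 1 read in 1 library.

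Zinc transporters besides SLC30A1 were read next, with limma calling 0% of all tested genes. Of 9 listed exporter genes besides SLC30A1, 5 were tested, and 0 rose and 0 fell (median difference -0.12). SLC30A7, a transporter that loads zinc into the Golgi, had 980, 863 and 932 normalized counts in CD24low and 1485, 1096 and 1075 in CD24high libraries. The difference was -0.38 (SE 0.14, limma adjusted p = 0.29). SLC30A5, which acts in the early secretory pathway, had 1182 ± 85.0 and 1322 ± 219 normalized counts (difference -0.15, limma adjusted p = 0.67). Of 11 tested SLC39A importers, 0 rose and 0 fell (median 0.03). SLC39A8, an importer of zinc and manganese at the cell surface, had 927 ± 186 in CD24low and 1238 ± 186 in CD24high cells (difference -0.43, limma adjusted p = 0.31). SLC39A7, which releases zinc from the endoplasmic reticulum, had 1771 ± 52.7 and 1511 ± 35.3 (difference 0.23, limma adjusted p = 0.35). For SLC30A7 and SLC39A8 all CD24low values were under the lowest CD24high value, and for SLC39A7 all were over the highest.

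Of 11 tested copper genes, 0 rose and 0 fell with limma, which called 0% of all tested genes (list median -0.03). SLC31A2, a copper transporter of internal membranes, had 159 ± 20.9 normalized counts in CD24low and 244 ± 63.4 in CD24high cells (difference -0.59, limma adjusted p = 0.26), and CCS, the copper chaperone of superoxide dismutase, had 176 ± 4.84 and 146 ± 12.1 (0.26, limma adjusted p = 0.48). Of 9 tested iron genes, 0 passed limma and 1 rose with DESeq2, which called 1.41% of all tested genes higher (list median 0.08). The gene that rose was FTL, the ferritin light chain. It had 2641, 3381 and 2238 normalized counts in CD24low and 2029, 1724 and 1141 in CD24high libraries. FTL differed by 0.77 (SE 0.22, limma adjusted p = 0.19, DESeq2 adjusted p = 0.025), with 0.26 among libraries of low and 1.39 among those of high rRNA share. FTH1, the ferritin heavy chain, had 37369 ± 7215 and 29196 ± 2805 (0.34, limma adjusted p = 0.41), and ferritin genes have many processed copies in the genome.

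Stress programs that are known to act on metallothionein genes were read beside them. Of 12 tested oxidative stress genes, 0 rose and 0 fell with limma, which called 0% of all tested genes (list median 0.06). GCLC, which makes the first step of glutathione synthesis, had 967 ± 95.4 in CD24low and 1185 ± 95.5 in CD24high cells (-0.29, limma adjusted p = 0.33), and KEAP1, the inhibitor of NRF2, had 1177 ± 66.2 and 1008 ± 45.6 (0.22, limma adjusted p = 0.39). Of 9 tested heat shock genes, 0 rose and 0 fell with limma (median 0.02). HSPB1 had 2953 ± 373 and 2323 ± 649 normalized counts (0.38, limma adjusted p = 0.41), and HSPH1 had 4587 ± 635 and 5259 ± 347 (-0.20, limma adjusted p = 0.52). Each of these lists had a median within 0.1 of that over all genes. Among libraries of low and high rRNA share the oxidative stress list had a median of -0.05 and 0.17. Since limma called no gene at all, the counts of 0 cannot tell whether a list changed.

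The glucocorticoid list had a median difference of 0.31, which was 0.06 among libraries of low and 0.51 among those of high rRNA share, and 0.17 without CD24low replicate 2. Of its 10 tested genes, 0 passed the adjusted threshold of limma, which called 0% of all tested genes, or of DESeq2, which called 2.56%. An unadjusted limma p below 0.05 was found for 4 of them and for 13.5% of all tested genes. TSC22D3, a glucocorticoid-induced leucine zipper gene, had 443, 1097 and 449 normalized counts in CD24low libraries and 184, 390 and 208 in CD24high libraries. Its groups did not overlap (difference 1.29, SE 0.37, limma adjusted p = 0.20). DUSP1, a MAP kinase phosphatase, had 1888 ± 1052 in CD24low and 905 ± 250 in CD24high cells (0.95, limma adjusted p = 0.29), and it differed by 0.0035 among libraries of low and 1.75 among those of high rRNA share. The receptor gene NR3C1 had 2434 ± 111 and 2487 ± 333 normalized counts.

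**Figure D4:**
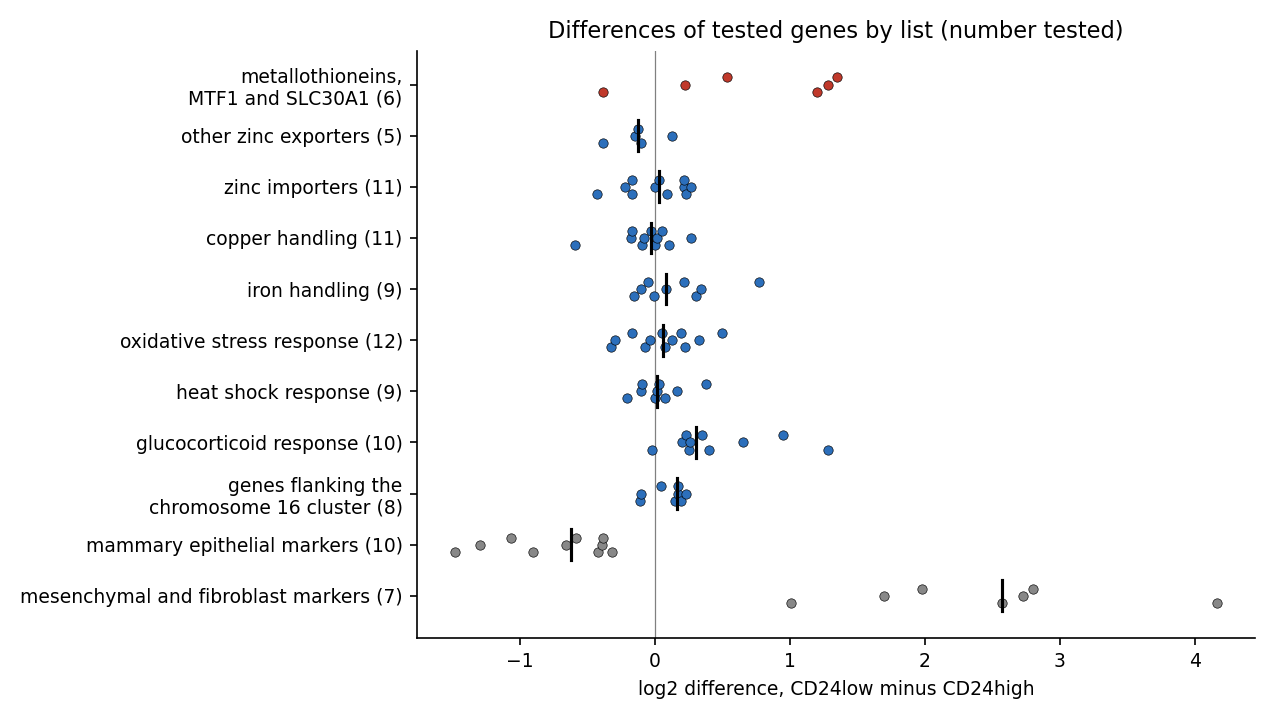
Log2 differences (CD24low minus CD24high) of tested genes by list, with the number tested in brackets. Red points are the 6 members past the filter, blue points zinc, metal, stress and flanking genes, and grey points cell type markers; black bars are list medians. MT2A, MT1E and MT1X stand at 1.20 to 1.35, the zinc transporters, copper and iron genes lie between -0.59 and 0.77, and the mesenchymal markers lie from 1.01 to 4.16.

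Cell type markers differed between the same libraries. Of 10 mesenchymal and fibroblast markers, 7 were tested, with differences from 1.01 to 4.16, and 5 rose with DESeq2, which called 1.41% of all tested genes higher (0 rose with limma). VIM, the filament protein vimentin, had 11644, 13918 and 5013 normalized counts in CD24low and 3456, 2845 and 1337 in CD24high libraries, so CD24low replicate 3 was the lowest of its group here as for MT2A, MT1E and MT1X. The median over the 7 tested markers, 2.57, was 1.37 among libraries of low and 3.55 among those of high rRNA share. The summed level of the 10 was 16283 to 58512 normalized counts in CD24low and 3779 to 7514 in CD24high libraries. Most of that sum came from FN1 and VIM, while LUM was at 0 and COL1A2 had 1 read in 1 library. FN1 had 18455, 39759 and 10020 normalized counts in CD24low and 3621, 4167 and 2313 in CD24high libraries. ZEB2, a repressor of epithelial genes, had 305, 655 and 215 normalized counts in CD24low and 55.6, 75.1 and 33.6 in CD24high libraries (2.73, limma adjusted p = 0.068), and POSTN, the matrix protein periostin, differed by 2.80 (limma adjusted p = 0.068). All 10 mammary epithelial markers were tested, from -1.48 to -0.31, and 3 fell with DESeq2, which called 1.15% of all tested genes lower (0 fell with limma). Their median of -0.62 was -0.21 among libraries of low and -0.95 among those of high rRNA share, and KRT8 (0.23) and KRT18 (0.07), keratins of luminal cells, were above 0 among those of low share. The summed level of the 10 epithelial markers was 77874 to 110338 in CD24low and 108335 to 138930 in CD24high libraries, with TP63, a basal cell factor, at 98.9 ± 13.2 against 246 ± 51.6 (limma adjusted p = 0.068). CLDN1, a tight junction protein, differed by -1.48 (limma adjusted p = 0.095), with -0.55 among libraries of low and -2.25 among those of high rRNA share. Of 7 leukocyte and endothelial markers, CD3E was at 0 in all libraries, and PTPRC had 0 to 2 reads. PECAM1 (0.31, limma adjusted p = 0.84) and CD68 (0.54, limma adjusted p = 0.49) were the tested ones. The part of these marker differences, and of rRNA share, in the metallothionein difference was not tested.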

How the data were processed

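The deposited table gives, for 6 libraries, gene-level counts after division by each library's DESeq2 size factor, a signal per gene deposited by the authors, per the file headers and the submitters' processing notes, which also name STAR 2.5.2, R 3.5.0 and hg38. The sources used here do not give the counting tool, annotation or strand setting. Each library's smallest step gave its value per read, and 100% of values were whole reads within 0.1. Of 58381 IDs, 58261 matched GENCODE 29 without their version, and 27150 had 0 reads in all libraries.

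Differences were fitted with limma 3.58.1 (R 4.3.3) with an intensity trend on log2 (deposited normalized count + 1), over the 16047 genes averaging 10 or more. Benjamini-Hochberg adjustment was over all of them, with a threshold of 0.05. The procedure was also run on simulated counts with known changes, and how many of these it found is not given here. DESeq2 1.42.0 and edgeR 4.0.16 on the recovered reads, other pseudocounts, filters and scalings, rRNA share, replicate blocks and left-out libraries were the alternatives. Sequences were read with Python 3.11.15. The members and lists were chosen with earlier results of these data known. Named genes are the members, CD24 and CD44, the 2 genes of smallest p in each list and the 5 genes nearest in profile to MT2A and to SLC30A1. AC026461.1, NR3C1, VIM, FN1, KRT8, KRT18, the other neighbours of the cluster, MT2P1 and MT3 and the markers at or near 0 were named besides, after their values were seen. SOD2 had more than 1 ID, and the one with most reads was used. Some items that the rule names are not reported here.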

Additional observations from a re-analysis of the deposited data

How the results depend on the processing

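With 3 libraries in each fraction, limma called 0 of 16047 genes and 0 of 75 tested genes of the zinc, metal, stress and flanking lists. Over all genes the count was 164 of 31231 without the filter on low values, 411 with DESeq2, 103 without both libraries numbered 3, and 0 to 366 with 1 library left out, where 366 came without CD24low replicate 3. Replicate numbers are shared between the fractions, but no label says what a shared number marks, so the numbers were not taken as pairs. The deviations of same-numbered libraries correlated at 0.27, 0.30 and 0.05, and those of different-numbered libraries at -0.26 to 0.08. For replicates 1 and 2 the same-numbered correlation was the highest, so the libraries may be paired. With a replicate block limma called 716 genes and edgeR, an alternative chosen after seeing the data, 705. Among the list genes DESeq2 called 1 (FTL), and each fit with the replicate block called 4 (FTL, TSC22D3, DUSP1 and CEBPD). The cause of these changes was not tested. The median difference of the 4 metallothioneins past the filter, 1.24, was 0.74 among libraries of low and 1.48 among those of high rRNA share, and 1.07 to 1.48 with 1 library left out. Within libraries of low rRNA share the flanking genes had a median of -0.15, and within those of high share the other zinc exporters had 0.08. None of the 6 members past the filter changed sign under the alternatives run for them, which left out MT1G, MT1L and MT1M. MT1F, MT1G, MT1L and MT1M are limited by depth.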

Other observations

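GALK1, the non-metallothionein gene nearest to MT2A in profile, had 182 ± 31.2 normalized counts in CD24low and 75.8 ± 2.45 in CD24high cells (SD, n = 3 each), a log2 difference of 1.24. FBN2 had 3024 ± 1030 and 1309 ± 157, a log2 difference of 1.15. Among the genes nearest to SLC30A1, RAD51AP1, a DNA repair factor, differed by -0.44, and the ubiquitin protease YOD1 by -0.36.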
